A study of Mus musculus with 6 samples.

Results

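The 42 collagen genes of the array were compared between livers of mice on a ketogenic diet and on chow. A gene was a member if the platform annotation gave its probe set the single symbol of a collagen chain (Col, a type number, a, a chain number). Where a gene had several probe sets, the brightest on average over the 6 arrays stood for it. The members had 82 probe sets and came from 18193 genes with a single symbol; the rule used no difference between the diets. All 42 symbols matched the same symbol in RefSeq through their gene identifiers. By class, 11 members encode fibrillar chains, 6 encode type IV chains of basement membranes and 25 encode other collagens.

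All animals were C57BL/6 mice, 8 weeks old at the start, with no transgene or drug. The chow group received Labdiet 5008, an ordinary laboratory diet, and the ketogenic group Bio-Serv F3666, which is rich in fat with almost no carbohydrate. The diets were not compared here in protein or other nutrients, so the results cannot be tied to any single nutrient. Feeding lasted 6 weeks. Livers were taken in the morning from animals with free access to food, and each diet had 3 arrays. The design text speaks of 2 to 3 animals per group and does not tell if RNA was pooled on an array. The p-values therefore measure the spread between these samples, which may be technical.

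Collagens are secreted proteins made of 3 chains wound into a triple helix. Fibrillar collagens (types I, III and V in most soft tissues) form the cables that give a tissue tensile strength, and type IV collagen forms the sheet-like network of basement membranes. Other types sit on fibrils, form beaded filaments around cells or span the cell membrane. In liver, stellate cells and portal fibroblasts are the main source of fibrillar collagen, sinusoidal endothelial cells also make type IV collagen, and hepatocytes make type XVIII. In whole tissue, fewer cells of a type and less RNA per cell cannot be told apart.

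Upstream sequences are shown for members that were called higher. Shared regulation of these members was not tested. RefSeq start-site windows (GRCm38.p6) were found for 33 of the 42 members and for 6 of the 9 raised ones. Col1a1, Col5a2 and Col14a1 had none. For Col4a1 fewer than 200 bases of the window lie outside its own gene, and the window of Col4a2 lies in another gene, so neither is shown. The 200 bases before the outermost annotated start of the other 4 are at chr6:4505418-4505617 (plus strand) for Col1a2, chr1:45311338-45311537 (plus) for Col3a1, chr2:27886181-27886380 (plus) for Col5a1 and chr1:90844002-90844201 (minus) for Col6a3. They are written 5′ to 3′, and capitals mark matches to 3 promoter motifs on either strand. The CCAAT box was searched as those letters. The GC box was searched as GGGCGG. For the TATA box the letters searched were TATAAA. No 2 matches overlapped.
Col1a2: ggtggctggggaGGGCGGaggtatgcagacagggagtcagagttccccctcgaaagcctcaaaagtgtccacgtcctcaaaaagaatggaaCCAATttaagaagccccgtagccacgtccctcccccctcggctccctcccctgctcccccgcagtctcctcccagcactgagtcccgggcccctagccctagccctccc
Col3a1: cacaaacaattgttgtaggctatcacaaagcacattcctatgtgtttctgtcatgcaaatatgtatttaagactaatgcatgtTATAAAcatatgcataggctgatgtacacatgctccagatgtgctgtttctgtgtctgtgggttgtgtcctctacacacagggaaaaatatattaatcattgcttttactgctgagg
Col5a1: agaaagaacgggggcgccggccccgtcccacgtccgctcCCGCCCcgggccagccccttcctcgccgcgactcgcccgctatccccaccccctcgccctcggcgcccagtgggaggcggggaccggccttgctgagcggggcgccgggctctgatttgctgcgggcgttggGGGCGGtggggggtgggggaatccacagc
Col6a3: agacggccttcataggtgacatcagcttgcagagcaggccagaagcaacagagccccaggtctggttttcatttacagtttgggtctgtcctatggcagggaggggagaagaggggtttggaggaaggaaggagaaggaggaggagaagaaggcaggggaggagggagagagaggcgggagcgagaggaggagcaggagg
Col1a2 held 1 CCAAT box and 1 GC box, Col3a1 1 TATA box, Col5a1 2 GC boxes, and Col6a3 none of the 3. No motif was common to the 4, and the GC content ran from 37.5% in Col3a1 to 77% in Col5a1. Among the 32851 start-site windows of the table, 29.3% held a CCAAT box, 31% a GC box and 9.96% a TATA box in the 200 bases before the start. These matches describe letters only.

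The arrays differed in level and in some controls. The 2% trimmed mean signal was 39.6 to 53.1 on chow and 45.6 to 60.7 on ketogenic arrays. Hybridization controls, RNA added in known amount, read 633 to 650 on chow and 478 to 511 on ketogenic arrays. The ratio of 3′ to 5′ actin signal, a sign of RNA integrity, was 2 to 2.2 on chow and 1.49 to 1.63 on ketogenic arrays. The hybridization controls and the actin ratio were lower on all ketogenic arrays, while the same ratio for Gapdh overlapped (0.761 to 0.972 on chow and 0.775 to 0.812 on ketogenic arrays). The part of RNA integrity in the collagen results was not tested, and array scaling is addressed with the results. Hepatocyte markers fitted the labelled tissue, with Alb, albumin, at 7780 to 8417 on all 6 arrays. Ketogenic array 2 stood apart for skeletal muscle transcripts: Acta1, skeletal actin, read 424.1 there and 2.7 to 15.4 elsewhere, and Myh4, a fast muscle myosin, 128.7 against 0.2 to 6.2. Adipocyte transcripts Adipoq and Lep were near 0, at 0.3 to 6.4 on all arrays.

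On the ketogenic diet, transcripts of 9 collagen genes rose and 0 fell: the fibrillar chains Col1a1, Col1a2, Col3a1, Col5a1 and Col5a2, the type IV chains Col4a1 and Col4a2, and Col6a3 and Col14a1. For the 7 whose chow level was above the background, the rises ranged from 1.19 for Col5a1 to 2.96 for Col3a1 on the log2 scale, and Col3a1 was 7.61 times its chow mean. Col1a1 and Col5a2 rose at least 8.53-fold and 5.37-fold. Of the 42 members, 22 passed the filter on dim probe sets and were tested, and 13 of the 22 did not pass the threshold (limma, Benjamini-Hochberg adjusted p under 0.05 over 11858 genes). Over all genes tested 7.46% were called in either direction, 6.6% higher and 0.86% lower. The median log2 change was 1.12 over the 22 members and 0.24 over all genes tested (0.97 and 0.23 with genes under the background in 1 diet at their bound). A member that was dim on chow could pass the filter through its ketogenic signal, so the 22 do not stand for all 42. When every gene was tested with no filter, 3 of 42 members passed (Col3a1, Col4a1 and Col14a1), against 1.47% of 18193 genes. Without ketogenic array 3, 6 of 22 rose, and without ketogenic array 2, the array with muscle transcripts, 8 rose and 1 fell. Over all genes tested, 3.9% rose without ketogenic array 3 and 3.58% without ketogenic array 2, against 6.6% with all 6 arrays.

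**Figure D1:**
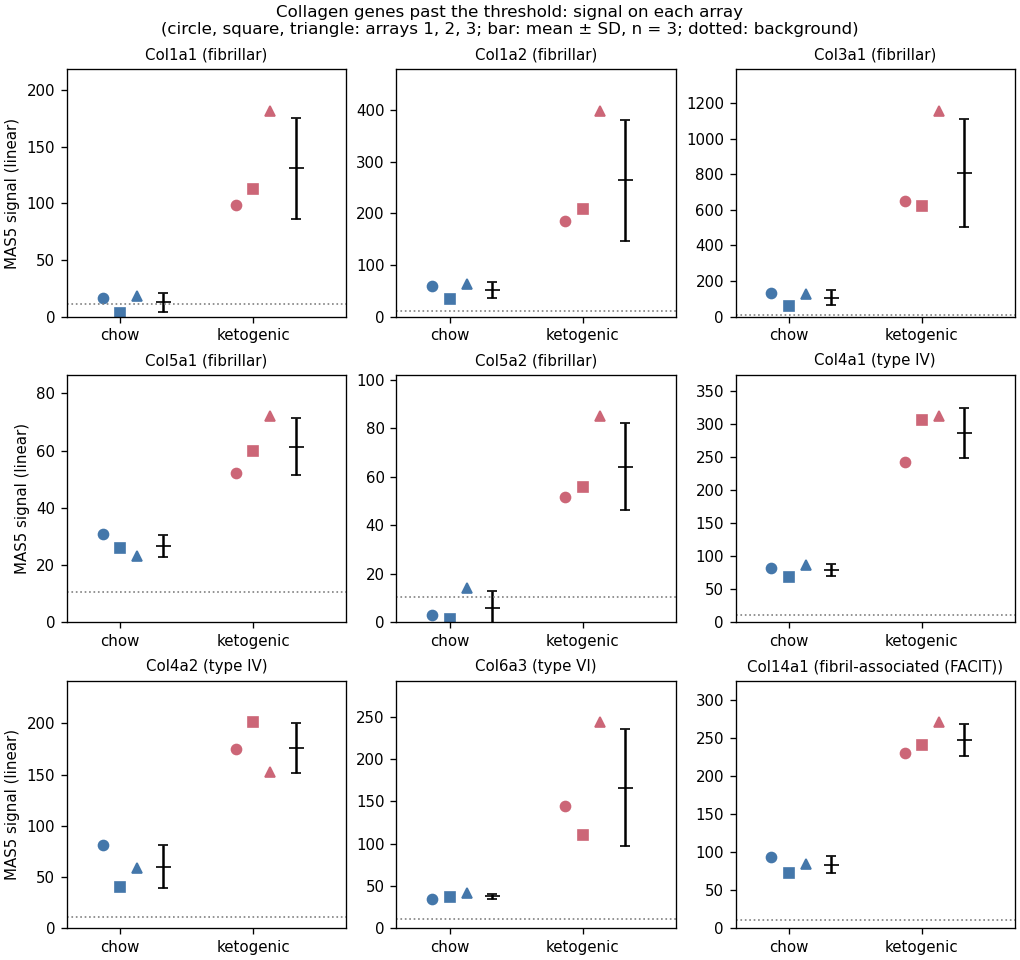
Linear MAS5 signal of the 9 collagen genes past the threshold on each of the 6 arrays (points; circle, square and triangle are arrays 1, 2 and 3), with mean ± SD (n = 3, cut at 0) and the background of 10.7 as a dotted line. Every ketogenic array lies above every chow array for all 9 genes, and ketogenic array 3 is the highest array for 8 of them.

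Scaling the arrays in other ways moved the balance but not the direction of these 9. Setting the array medians equal gave 9 members that rose and 2 that fell. Equal trimmed means gave 8 and 2, quantile normalization 6 and 2, and equal hybridization controls 10 and 0. The 2 that fell under the first 3 of these were Col27a1 and Col9a1. These scalings shifted the median of all genes by -0.11, -0.21, -0.24 and 0.36, and with the deposited scale all 9 calls were rises. In the same order, 7.88%, 5.78%, 4.92% and 31.8% of all genes tested rose, against 6.6% on the deposited scale. Those that fell numbered 278, 363, 327 and 93 of 11858, against 102.

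**Figure D2:**
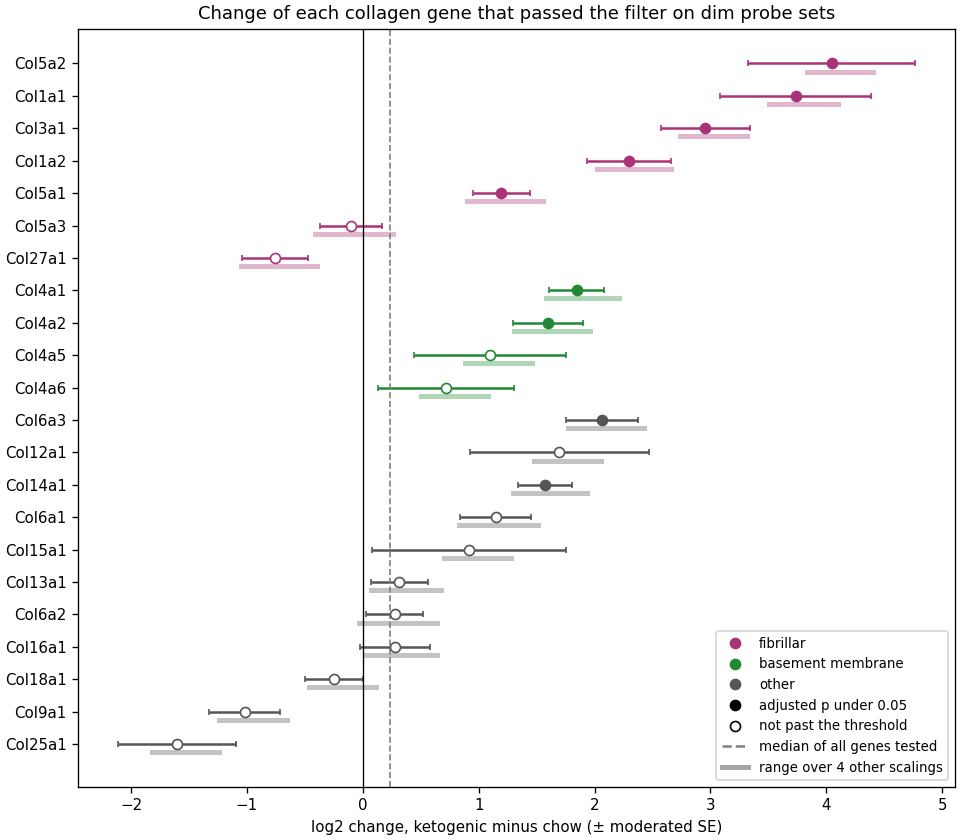
Log2 change (ketogenic minus chow, ± moderated SE, 3 arrays per diet) of the 22 collagen genes that passed the filter, grouped by class, with filled points past the threshold and thick bars for the range over the 4 other scalings. The 5 raised fibrillar genes lie between fitted values of 1.19 and 4.05, of which those of Col1a1 and Col5a2 rest on a chow level under the background; Col5a3 and Col27a1 lie at -0.10 and -0.75, and the dashed line is the median of all genes tested, 0.24.

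Among the fibrillar chains 5 of 7 tested genes rose (median log2 change 2.30). The count was 3 with quantile normalization, 2 without ketogenic array 3 and 1 without the filter on dim probe sets. Col1a1 and Col1a2 encode the chains of type I collagen, the main collagen of scar tissue. For Col1a1, chow arrays 1, 2 and 3 read 16.6, 2.8 and 18.4, and the ketogenic arrays in the same order 98.7, 112.5 and 181.8. The diets did not overlap, and chow array 2 was the lowest. Its mean chow level on the log2 scale lay under the background of 10.7, set by bacterial control probe sets, so the rise is given as at least 8.53-fold (adjusted p = 0.0117 in limma). The Col1a1 call was lost without ketogenic array 3 (adjusted p = 0.0562) and without the filter (0.0859). A second probe set of Col1a1 also passed the threshold, with a mean of 9.47, under the background, on chow and 30.5 on the ketogenic diet.

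Col1a2 had signals of 59.4, 34.7 and 62.5 on chow and 185.5, 208.1 and 398.7 on ketogenic arrays. Again the diets did not overlap, chow array 2 was lowest and ketogenic array 3 highest. The log2 change was 2.30 ± 0.36 (SE, limma adjusted p = 0.00764), and a second probe set rose by 2.05. Of 18 alternatives, this call was lost only without the filter (adjusted p = 0.0608).

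Col3a1 encodes the single chain of type III collagen, the fine reticulin fibre of liver. Its signals were 135.3, 59 and 124.4 on chow and 647.2, 619.6 and 1157.3 on ketogenic arrays. The lowest ketogenic array was thus far above the highest chow array. Col3a1 rose from 106 ± 41.3 to 808 ± 303 (SD, n = 3), a log2 change of 2.96 ± 0.39 (SE, limma adjusted p = 0.00389), and passed under all 18 alternatives. Its dimmer probe set also passed, with means of 8 on chow, under the background, and 36.1.

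Type V collagen starts and limits the growth of fibrils. Col5a1 read 30.9, 26.1 and 23.3 on chow and 52.3, 59.8 and 71.9 on ketogenic arrays, with no overlap. Its rise of 1.19 ± 0.25 (log2, SE, limma adjusted p = 0.0208) did not hold under 7 of 18 alternatives (largest adjusted p 0.13). These included quantile normalization (0.0587) and leaving out chow array 2 or 3 (0.0634 and 0.0613) or ketogenic array 2 or 3 (0.0583 and 0.0633). The 0.13 arose when a second probe set of similar brightness stood for Col5a1. That probe set read 35.3, 24.7 and 34.5 on chow and 52.9, 63.2 and 42.4 on ketogenic arrays, without overlap. Its log2 change was 0.745 (limma adjusted p = 0.178 over 22515 probe sets). Averaging the 3 probe sets of Col5a1 kept the call (log2 change 1.506, limma adjusted p = 0.00639). Col5a2 read 3, 1.3 and 14 on chow, a mean log2 level under the background, and 51.9, 55.8 and 84.9 on ketogenic arrays. It rose at least 5.37-fold (limma adjusted p = 0.0122), but 4 of 17 alternatives ended the call (largest adjusted p 0.0907). Among these were quantile normalization (0.0521), a common trimmed mean (0.0514) and leaving out ketogenic array 3 (0.0599). Col5a3, the remaining type V chain, read 71.3, 59.9 and 57.4 on chow and 49.4, 79.3 and 50.9 on ketogenic arrays, a log2 change of -0.10 ± 0.27 (SE). The diets overlapped for Col5a3.

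Col27a1, a fibrillar collagen of cartilage, went the other way. It read 137.4, 105.9 and 119.6 on chow and 61.5, 101.9 and 57.8 on ketogenic arrays, so that every ketogenic array was below every chow array. The log2 change of -0.75 ± 0.28 (SE) had a limma adjusted p = 0.152 on the deposited scale and passed the threshold with 3 of the 4 other scalings, in a range of 0.035 to 0.398 over 18 alternatives. A second probe set changed by -0.51. The other 4 fibrillar genes were left out by the filter. Col2a1, the main cartilage collagen, read 25, 6.9 and 23.6 on chow and 5.7, 7.9 and 0.9 on ketogenic arrays. Col11a2 read 8.5, 2.8 and 2.7 on chow and 16, 25.7 and 11.8 on ketogenic arrays. Col11a1 and Col24a1 were under the background on both diets.

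Of 6 type IV genes 4 were tested (median log2 change 1.35, or 1.16 with bounds) and 2 rose, the chains of the network found in nearly all basement membranes. Col4a1 read 82.4, 69 and 87.3 on chow and 242.3, 305.5 and 311.3 on ketogenic arrays. The replicates lay close together and the diets were far apart. It rose by 1.85 ± 0.24 (log2, SE, limma adjusted p = 0.00362), a second probe set by 2.04 (from 41.7 to 167.5), and the call held under all 18 alternatives. Its partner Col4a2 read 81.6, 39.9 and 59.2 on chow and 174.7, 200.9 and 152.3 on ketogenic arrays. Col4a2 rose by 1.60 ± 0.30 (log2, SE, limma adjusted p = 0.0151), and this was the raised collagen whose highest array was not ketogenic array 3. Of 18 alternatives the call was lost only without the filter (adjusted p = 0.0783).

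The chains Col4a3 to Col4a6 belong to the specialised basement membranes of kidney, lung and skin. Col4a5 read 2.2, 16.3 and 12.4 on chow and 18, 12.3 and 19.6 on ketogenic arrays, and Col4a6 read 23.7, 17.6 and 3.9 against 19.1, 16.6 and 22.7. For both the diets overlapped, with limma adjusted p = 0.355 and 0.501. Col4a3 read 17.3, 2 and 11.3 against 23, 13.7 and 4, and Col4a4 was under the background on both diets. These last 2 were not tested.

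Among the other collagens 2 of 11 tested genes rose (median log2 change 0.32), 1 to 3 over the scalings. Type VI collagen forms beaded filaments around cells, and its long chain is Col6a3. Col6a3 read 35.1, 36.5 and 41.4 on chow and 144.5, 110.4 and 243.6 on ketogenic arrays. It rose by 2.06 ± 0.31 (log2, SE, limma adjusted p = 0.00687), with the spread confined to the ketogenic arrays. The call was lost with quantile normalization (adjusted p = 0.0547) and without the filter (0.0533). Its partner Col6a1 read 51.5, 25 and 43.2 on chow and 72.5, 86.7 and 95.9 on ketogenic arrays. Col6a1 had a log2 change of 1.15 ± 0.31 (SE, limma adjusted p = 0.0585) with no overlap, and passed under 5 of 18 alternatives (0.00683 to 0.172).

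For Col6a2, the third chain, probe sets disagreed. The representative probe set, whose suffix marks possible binding of several transcripts, read 61.5, 55.7 and 81.3 on chow and 71.6, 79.1 and 87.5 on ketogenic arrays, a log2 change of 0.28 ± 0.25 (SE). The other read 8.2, 4.6 and 4.7 on chow and 20.7, 34.6 and 65.9 on ketogenic arrays, with a chow level under the background and limma adjusted p = 0.0141 over 22515 probe sets. Col6a2 therefore passed the threshold when probe sets of the first kind were left out. Col6a4 and Col6a5 were under the background on both diets.

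Col14a1 encodes a collagen that binds to the surface of fibrils and is typical of quiescent fibroblasts. It read 94.1, 72.1 and 84 on chow and 229.5, 240.9 and 270.2 on ketogenic arrays. The rise of 1.57 ± 0.23 (log2, SE, limma adjusted p = 0.0062) held under all 18 alternatives, while a second probe set had a log2 change of 1.08 (adjusted p = 0.0684 among probe sets). Of the same family, Col12a1 read 27.3, 22.3 and 2.8 on chow and 49.1, 49.8 and 23.7 on ketogenic arrays, with overlap (limma adjusted p = 0.23). Col16a1 overlapped as well, at 21.1, 24 and 25.1 on chow and 42.6, 25.9 and 20.4 on ketogenic arrays. Col9a1, a collagen of cartilage, read 38.7, 30.3 and 28.1 on chow and 10.9, 22.1 and 16.4 on ketogenic arrays. Its log2 change of -1.02 ± 0.31 (SE, limma adjusted p = 0.0811) passed the threshold with 3 of the 4 other scalings, in a range of 0.0312 to 0.891 over 18 alternatives. A second, dimmer probe set of Col9a1 went the other way without overlap, at 7.3, 9.3 and 5.9 on chow and 22.3, 9.4 and 11.4 on ketogenic arrays. With the mean of both probe sets the log2 change was -0.081.

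Col18a1, whose C-terminal fragment is endostatin, read 1186.7, 1069.2 and 961.1 on chow and 1012.3, 1008.9 and 706.4 on ketogenic arrays. The diets overlapped, and the log2 change was -0.25 ± 0.25 (SE, limma adjusted p = 0.58). It became 0.11 when scaled to the hybridization controls, and a second probe set had -0.44. Col15a1, the other member of the endostatin-type group and a basement membrane zone collagen, read 4.1, 15.5 and 6.9 on chow and 3.4, 40.1 and 21.6 on ketogenic arrays (limma adjusted p = 0.547). Of the transmembrane collagens, Col13a1 changed by 0.32 (log2, limma adjusted p = 0.474). Col25a1 read 22.1, 25 and 14.5 on chow and 5.7, 15.2 and 3.3 on ketogenic arrays, with overlap (limma adjusted p = 0.0963). It passed the threshold, lower, without ketogenic array 2 (0.0161).

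The 20 members left out by the filter had signals of 0.3 to 25.7 with a median of 5.65, and 13 of them lay under the background on both diets. For 15 the diets overlapped. The 5 without overlap were Col11a2, Col8a1 and Col23a1, higher on the ketogenic diet, and Col20a1 and Col26a1, lower. Of all 6335 genes left out by the filter, 13% had no overlap, 7.04% higher and 5.92% lower. Col8a1, a network collagen of vessel walls, read 11.1, 5.1 and 1.3 on chow and 20.4, 20 and 16.4 on ketogenic arrays. Its second probe set passed the filter and was higher (limma adjusted p = 0.0156 over 22515 probe sets), from 6.73 to 17.9, a chow mean under the background. Further probe sets of the 9 raised genes numbered 10, of which 6 passed the filter. All 6 of these had a positive change and 4 passed the threshold.

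Among the tested members 12 of 22 showed no overlap between diets, 10 of them higher on the ketogenic diet. Over all genes tested, the diets did not overlap for 29.3%, and 24.1% were higher without overlap. The order of the arrays within a diet was shared by the raised collagens. Ketogenic array 3 was the highest ketogenic array for 8 of the 9, against 27.5% of all 783 raised genes and 8.51% of all genes tested. Chow array 2 was the lowest chow array for 7 of the 9, against 42.3% of all raised genes. The 9 genes share the same 6 RNA samples, so they are not independent sightings of this order.

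**Figure D3:**
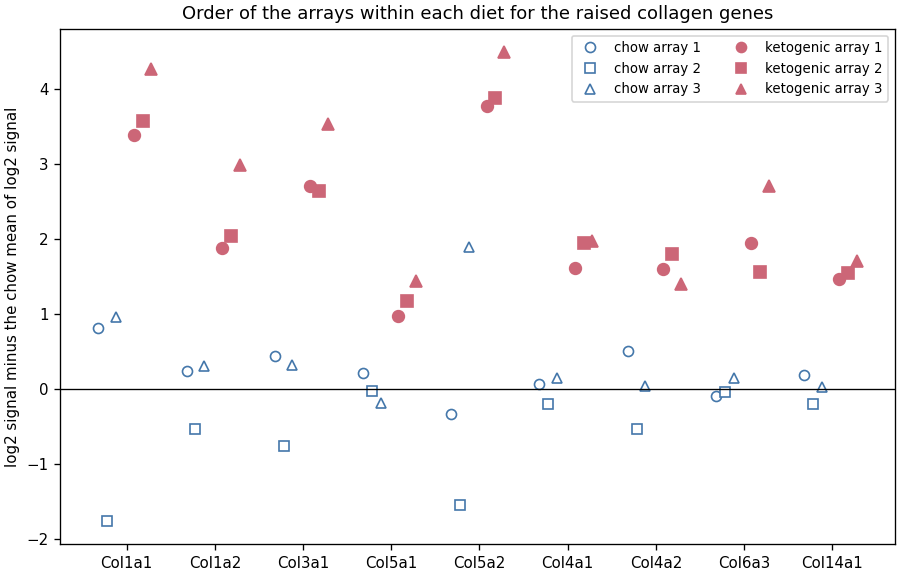
Log2 signal of the 9 raised collagen genes on each array, minus the mean log2 signal of the 3 chow arrays; open blue symbols are chow and filled red symbols ketogenic arrays. Ketogenic array 3 (triangles) is highest for 8 of 9 genes, and chow array 2 (open squares) is lowest for 7 of 9.

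Differences between chains within an array do not depend on a scaling factor shared by all probe sets of that array. Of 4 pairs chosen after their values were seen, Col3a1 minus Col4a1 had a mean log2 difference of 0.33 ± 0.50 on chow and 1.44 ± 0.44 on ketogenic arrays (SD, n = 3), higher on all 3 ketogenic arrays (exact permutation p = 0.1, the smallest possible; adjusted p = 0.2). The pair of Col1a1 and Col1a2 has no interpretable difference, since Col1a1 lay under the background on chow. For Col6a3 minus Col6a1 the shift was 0.92 (exact permutation p = 0.2), and for Col4a1 minus Col4a2 it was 0.25 (exact permutation p = 0.5). No pair could pass the threshold with 3 arrays per diet.

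Some members are adjacent protein-coding genes in the RefSeq table. Col3a1 and Col5a2, next to each other on chromosome 1, both rose, as did Col4a1 and Col4a2 on chromosome 8. Col6a1 and Col6a2 on chromosome 10 had log2 changes of 1.15 and 0.28, neither past the threshold, and neither Col4a5 nor Col4a6 on chromosome X passed it.

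Genes that make, link, bind and break down collagen were described from lists. For these lists and the marker lists, the upper end of each range over the scalings came from equal hybridization controls. Under that scaling 31.8% of all genes tested rose. The lower ends were reached with quantile normalization, under which 4.92% rose. With 1 array left out, 3.58% to 6.97% of all genes tested rose. Of enzymes and chaperones that process collagen chains, 4 of 16 tested rose (3 to 9 over the scalings), with a median log2 change of 0.69. Sparc, a collagen chaperone, rose by 2.30 (adjusted p = 0.00204), Pcolce, which speeds removal of the C-propeptide, by 1.38, and Crtap, of the prolyl 3-hydroxylation complex, by 1.30. The Pcolce call was lost with a common trimmed mean or quantile normalization, and those of Pcolce and Crtap without the filter. The general endoplasmic reticulum enzymes P4hb and Ppib had log2 changes of 0.20 and 0.04, and Serpinh1, the collagen chaperone HSP47, one of 0.94 (adjusted p = 0.15). Of cross-linking enzymes 2 of 6 rose (median 1.06, and 2 to 5 over the scalings), Loxl1, a lysyl oxidase of elastic fibres, by 2.13 and Tgm2, a transglutaminase, by 1.64. The Loxl1 call was lost without the filter, and that of Tgm2 under no alternative.

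Of enzymes and inhibitors of collagen breakdown 3 of 10 rose (median 0.76, and 2 to 6 over the scalings, with 0 to 1 that fell). Mmp12, macrophage elastase, read 1.4, 1.4 and 2.3 on chow and 95.5, 120.9 and 182.1 on ketogenic arrays. Mmp2, a gelatinase that also cleaves type IV collagen, rose at least 5.01-fold, and Timp2, an inhibitor of these enzymes, by 1.41 on the log2 scale. The Mmp2 call was lost under 2 of 18 alternatives, without the filter and with another probe set rule. Timp2 no longer passed under 7 of 18 alternatives (largest adjusted p 0.138), which included leaving out chow array 2, chow array 3 or ketogenic array 3. Timp1, the inhibitor most linked to liver fibrosis, was at 0.42 (log2 change, adjusted p = 0.515). Of the 10 tested, 3 had a negative change. Mmp8 read 29.9, 20.4 and 25.9 on chow and 14.9, 13.7 and 8.5 on ketogenic arrays, without overlap. The log2 change of Mmp8 was -1.06 (limma adjusted p = 0.0633), and that of Mmp9 was -0.97 with overlap (limma adjusted p = 0.191). Of collagen receptors 2 of 6 rose (median 0.61, and 2 to 5 over the scalings). Lair1, an inhibitory receptor of leukocytes, rose at least 3.09-fold. The receptor tyrosine kinase Ddr1 rose at least 5.31-fold, but its sign turned under 2 of 17 alternatives that used another probe set.

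Of the partners of type IV collagen in the basement membrane 4 of 11 rose (median 1.01, or 0.82 with bounds; 2 to 8 over the scalings, 1 without ketogenic array 1, and 2 without chow array 2, chow array 3, ketogenic array 2 or ketogenic array 3). Nid1, nidogen, which links laminin to type IV collagen, read 34.1, 26 and 41.1 on chow and 219.8, 225.5 and 284.2 on ketogenic arrays. Its rise of 2.87 ± 0.26 (log2, SE, limma adjusted p = 0.000782) held under all 18 alternatives. Sparcl1, a Sparc relative, rose by 1.18 and Agrn, a heparan sulfate proteoglycan, by 1.01. The Agrn call was lost when any 1 array was left out and with 3 of the 4 other scalings, and that of Sparcl1 without ketogenic array 1. Of proteoglycans and glycoproteins on fibrils 7 of 18 rose (median 1.13, or 0.88 with bounds; 5 to 13 over the scalings, and 4 without ketogenic array 1). They included Emilin1, an elastic fibre glycoprotein, by 1.90, and the fibril-binding proteoglycans Bgn by 2.04 and Lum by 1.88. The Bgn call was lost under 3 of 18 alternatives, 2 of them with other probe set rules, and those of Emilin1 and Lum under none. Of TGF-beta and fibrogenic signalling genes 3 of 17 rose (median 0.74; 2 to 13 over the scalings, and 1 without chow array 3 or ketogenic array 3): Tgfb1, Pdgfra and Pdgfrb. Tgfb1, the main fibrogenic cytokine, read 41.1, 31.9 and 37.6 on chow and 99.7, 115.1 and 97.3 on ketogenic arrays, and its call was lost with the mean of its probe sets (adjusted p = 0.481). The growth factor receptor Pdgfra rose at least 4.05-fold and Pdgfrb by 1.73. Both lost the call with 3 of the 4 other scalings, without chow array 3 and without ketogenic array 3, and also without ketogenic array 2 for Pdgfra and chow array 2 for Pdgfrb. Ccn2, connective tissue growth factor, was at 1.13 (log2 change, adjusted p = 0.119).

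**Figure D4:**
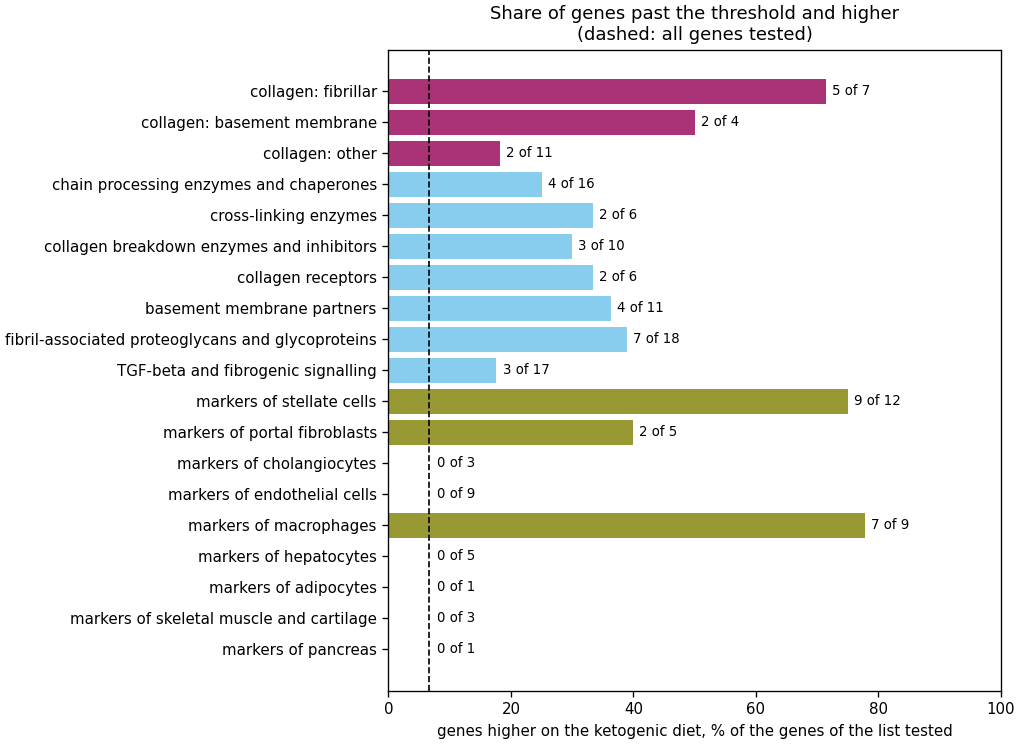
Share of tested genes that were past the threshold and higher on the ketogenic diet, for the 3 collagen classes, the partner lists and the marker lists, with the number of genes beside each bar. The dashed line marks the 6.6% of all genes tested, and the fibrillar class stands at 5 of 7.

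Markers of cell types were read in the same way. Of 14 stellate cell markers 12 were tested and 9 rose (median 1.25), 10 when scaled to the hybridization controls, 4 or 5 with the other 3 scalings, and 4 without chow array 3 or ketogenic array 3 (5 without chow array 2 or ketogenic array 2). Their summed signal was 1007 to 1316 on chow and 2188 to 2254 on ketogenic arrays. Rgs5 and Tagln rose by 1.49 and 1.68, and both passed under all 18 alternatives. The other calls were less stable. Reln lost its call under 11 of 18 alternatives, Lrat under 9 and Colec11 under 8, while Hand2 lost it under 3 of 17 and Ngfr under 1 of 17. With no filter on dim probe sets, 2 of the 14 rose. Pdgfra and Pdgfrb stand in this list and in that of fibrogenic signalling. Acta2, smooth muscle actin and the usual sign of stellate cell activation, read 132.8, 77.1 and 118.7 on chow and 102.8, 173.7 and 75.1 on ketogenic arrays, with a log2 change of 0.05 (limma adjusted p = 0.949). Gfap had -0.48 (adjusted p = 0.472), and Des and Hhip were left out by the filter. Of portal fibroblast markers 2 of 5 rose (median 1.02; 0 to 4 over the scalings, 1 without chow array 1, chow array 3, ketogenic array 1 or ketogenic array 3), with a summed signal of 117 to 154 on chow and 267 to 296 on ketogenic arrays, and Mfap4 and Gli1 lay at 0.7 to 9.2.

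Of macrophage markers 7 of 9 rose (6 to 8 over the scalings), with a median of 1.86 and a summed signal of 1035 to 1302 on chow and 3355 to 5297 on ketogenic arrays. Ketogenic array 2 was the highest ketogenic array for 7 of these 9, against 62.4% of all genes tested and 52.9% of all raised genes. Chow array 2 was the lowest chow array for 6, against 32.7% and 42.3%. Of the 12 tested stellate cell markers, ketogenic array 3 was the highest ketogenic array for 6, against 8.51% and 27.5%. For 10 of those 12, chow array 2 was the lowest chow array. Of endothelial markers 0 of 9 passed the threshold in limma (3 at an unadjusted p under 0.05), and 0 to 4 rose over the scalings, with 2 past it without chow array 1; their summed signal was 634 to 948 on chow and 959 to 1354 on ketogenic arrays. For cholangiocyte markers 0 of 3 passed, with 0 at an unadjusted p under 0.05 and summed signals of 54.3 to 84 on chow and 94.8 to 128 on ketogenic arrays. Hepatocyte markers had a median of -0.18, with Cps1 lower, and summed 39810 to 41280 on chow and 30160 to 34700 on ketogenic arrays. The mean of Cps1 was 5836 on chow and 1730 on ketogenic arrays, and that of Alb 8023 and 7948. Apoa1, Ttr and Cyp2e1 had log2 changes of -0.18, -0.16 and -0.24, none past the threshold. Markers of skeletal muscle and cartilage summed 33.2 to 62.2 on chow and 34.5 to 733 on ketogenic arrays, with 0 of 3 past the threshold in limma, 0 at an unadjusted p under 0.05 and 1 past it without ketogenic array 3. Adipocyte markers summed 35.1 to 47.8 and 34.6 to 61.1, and pancreas markers 180 to 269 and 98.9 to 150. Most of the pancreas sum was Cela1, at 175.9 to 265.8 on chow and 96.2 to 132.9 on ketogenic arrays. The other pancreas markers were low on all arrays, Cpa1 at 0.5 to 5.9 and Ctrb1 at 1.3 to 17.3. The part of a changed share of stellate cells, macrophages or any other cell type in the collagen results was not tested.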

How the data were processed

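Liver RNA of 3 chow and 3 ketogenic samples was hybridised to one-colour Affymetrix arrays. Per the submitters' processing notes, the authors made the deposited intensity values (linear signal per probe set) with GCOS and MAS5; the versions and the scaling target are not known here. The table holds 45101 probe sets, 64 of them controls. The platform annotation gave 34945 of the others 1 symbol, 932 several and left 9160 unlisted.

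Signals were used as deposited, set to at least 1.1, their 10th percentile, and log2 transformed. Genes whose probe set had a mean log2 signal of at least 3.35 (the table's median, signal 10.2) were tested, 11858 of 18193. lmFit and eBayes of limma 3.58.1 (R 4.3.3), two-sided, with 4 residual and 4.93 prior degrees of freedom, compared the diets; the smallest log2 change called was 0.88. SE is moderated. The background of 10.7 averages over arrays, on the log2 scale, the 95th percentile of the 27 probe sets for bacterial RNA; where a diet lay under it, signals were raised to it and the fold is a bound. Arrays give no read depth; their number limits precision. Replicates were numbered in order of deposition and pair nothing. The fit was tested on simulated data.

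The members and lists were chosen with earlier results of these data known. All members are accounted for. Fibrillar and type IV genes above the background in either diet, and all members past the threshold, have their values given on every array. For partner lists up to 3 members past the threshold were named by smallest adjusted p. Serpinh1, P4hb, Ppib, Timp1, Mmp8, Mmp9, Ccn2 and the single markers were named after their values were seen. Alternatives were 4 scalings, other floors, filters, probe set rules and priors, and leaving out each array.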

Additional observations from a re-analysis of the deposited data

How the results depend on the processing

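Of the 18 alternatives, 17 gave a count of collagen genes past the threshold, in either direction, within 1.5 times the 9 reported. The counts ran from 6 without ketogenic array 3 to 11. The 11 came with a common array median, a floor at the background or log2 of signal plus 16. Over all genes tested, 10.2%, 12% and 13.7% were called under these settings in that order, against 7.46%. Falls were counted too: 2 with a common array median, a common trimmed mean or quantile normalization, and 1 with a floor at the background or without ketogenic array 2. Quantile normalization kept 6 of the 9 rises. Without the filter on dim probe sets 3 passed. The median log2 change of the tested members, 1.12, was 0.87 with quantile normalization, 1.48 with a common level of hybridization controls, 0.66 with log2 of signal plus 16, and 0.49 without the filter, which adds dim genes. Leaving out 1 array gave counts of 6 to 10 and medians of 0.97 to 1.28. The share of all genes tested that rose was then 3.58% to 6.97%, against 6.6% with all arrays.

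The sign turned for members that had not passed the threshold. Col18a1 became 0.11 and Col5a3 0.26 when scaled to the hybridization controls, Col5a3 0.13 with the mean of its probe sets, and Col6a2 -0.03 with quantile normalization. Leaving out 1 array gave -0.32 to 0.022 for Col5a3, -0.022 to 0.51 for Col16a1 and -0.081 to 1.22 for Col4a6. The cause was not tested.

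No paired analysis was possible because the labels give no replicate numbers shared by the diets. Signals near the background limit what can be said of the 20 untested members.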
